A study of Mus musculus with 18 samples.

Results

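The 35 genes described here mark the endothelium of the artery and its activation, and were measured by RNA-seq in whole descending aortas. They were chosen by name and by no cut-off on a measured value, but with earlier results of these data known. They were 29 identity genes, 2 flow-responsive genes (Klf2 and Klf4) and 4 adhesion genes (Vcam1, Icam1, Sele and Selp). All 35 were found among the 54281 genes of the count table, and all 35 were among the 15210 that had at least 10 counts in at least 6 mice and were tested. The samples were 18 male C57BL/6 mice in 3 groups of 6. HGPS mice carried the LMNAG609G allele, which makes the truncated lamin A of Hutchinson-Gilford progeria in every lamin A-expressing cell, and were 64 to 75 d old (2 mo). The WT mice were 62 to 95 d old (2 mo) or 609 to 762 d old (24 mo). The study defines its HGPS mice as homozygous knock-ins at the endogenous Lmna locus and names heterozygous mice on this background as the stock it was given, while the sample labels give only the allele. No group received a treatment, and each library came from 1 mouse. The aorta segment ran from the end of the arch to the diaphragm with intima, media and adventitia together, after perfusion with PBS and cleaning.

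The endothelium is the single cell layer that lines the lumen. Its cells hold together through VE-cadherin (Cdh5), PECAM-1 (Pecam1) and claudin-5 (Cldn5), sense growth factors through receptor tyrosine kinases, and keep their identity through ETS and SOX transcription factors. KLF2 and KLF4 are induced by laminar flow and hold the cells in a quiescent state. On activation, the cells display selectins, which let leukocytes roll, and then VCAM-1 and ICAM-1, which hold them by integrins. In a whole aorta these transcripts come from a thin minority of cells, Vcam1, Icam1 and the KLF genes are also made by smooth muscle cells, fibroblasts or leukocytes, and fewer endothelial cells cannot be told apart from less RNA per cell.

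The promoters of Flt1 and Klf4 are shown because these were the members called in both comparisons with 2-mo WT mice, and that of Tie1 because its mean level was nearly equal in the 2 young groups. They are the 250 bases before the RefSeq start of each gene (GRCm38.p6), written 5′ to 3′ along the gene, with AGGAAG on either strand (CTTCCT on the other), a form of the site bound by ETS factors such as ERG and FLI1, in capitals.
Flt1 (chr5:147726012-147726261, minus strand): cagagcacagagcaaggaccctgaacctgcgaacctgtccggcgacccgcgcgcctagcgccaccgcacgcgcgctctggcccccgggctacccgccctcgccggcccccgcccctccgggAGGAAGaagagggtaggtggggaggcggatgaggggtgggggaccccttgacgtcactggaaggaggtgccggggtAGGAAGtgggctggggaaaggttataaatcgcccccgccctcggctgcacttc
Klf4 (chr4:55532476-55532725, minus strand): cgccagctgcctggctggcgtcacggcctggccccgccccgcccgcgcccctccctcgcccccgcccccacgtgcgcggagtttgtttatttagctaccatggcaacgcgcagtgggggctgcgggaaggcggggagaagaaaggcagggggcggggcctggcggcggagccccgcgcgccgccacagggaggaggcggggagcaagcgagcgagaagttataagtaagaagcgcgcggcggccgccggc
Tie1 (chr4:118489850-118490099, minus strand): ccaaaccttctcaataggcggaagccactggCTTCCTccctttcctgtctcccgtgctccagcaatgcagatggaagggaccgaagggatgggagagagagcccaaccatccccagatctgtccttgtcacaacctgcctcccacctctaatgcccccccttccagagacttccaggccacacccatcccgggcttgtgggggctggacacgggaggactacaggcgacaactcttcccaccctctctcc
RefSeq windows were matched for 21 of the 35 members. AGGAAG was present in 10 of these 21, beside 29.5% of all 32851 windows of 250 bases. The Flt1 window held it 2 times and the Tie1 window 1 time, whereas the Klf4 window had no match. CACCC, the core bound by KLF factors, was searched on both strands (as GGGTG on the other) and was present in 14 of 21 members and in 52% of all windows. It occurred 1 time upstream of Flt1 and 2 times upstream of Tie1. It can overlap AGGAAG by no more than an end base and is not marked. For both motifs a member counted if any of its windows held a match, and Egfl7 and Erg had 3 windows each. The shares of all windows are per single window, so the 2 measures are not quite alike. A match of this kind is a description of the letters only.

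The total counts were 17838351 to 30844775 in HGPS, 12413229 to 21016752 in 2-mo WT and 13622602 to 19871697 in 24-mo WT mice. Values are CPM (counts scaled to a common library total, with TMM factors), which sets a typical gene equal between libraries. Fold changes and their standard errors are from edgeR's quasi-likelihood test over all 18 mice, and adjusted p-values are Benjamini-Hochberg over the 15210 genes. A gene is called here at an adjusted p under 0.05. The study's cut-offs were stricter, at 1.5-fold and an adjusted p under 0.001. Over all genes the median log2 fold change was 0.0026 in HGPS and 0.0083 in 24-mo WT relative to 2-mo WT mice. The mutation acts on splicing, so gene-level Lmna counts do not check the genotype: Lmna stood at 445 to 653 CPM in HGPS, 341 to 486 CPM in 2-mo WT and 341 to 540 CPM in 24-mo WT mice.

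The aortas held a clear endothelial signal. Per kilobase of transcript, Pecam1 had the highest level of the 35 genes, with 150.0 CPM per kb in 2-mo WT, 153 in HGPS and 126 in 24-mo WT mice. Vwf, which encodes von Willebrand factor, followed with 38.3 CPM per kb in 2-mo WT, and Ptprb, which encodes the endothelial phosphatase VE-PTP, with 33.6. The lowest members in 2-mo WT were Aplnr (0.257 CPM per kb), Robo4 (0.311) and Sele (0.376). These 3 genes had under 10 counts in at least 1 mouse, the lowest being 4 counts for Aplnr, and no member was at 0 in any mouse.

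In HGPS relative to 2-mo WT aortas, 5 of the 35 members rose and none fell. Across all genes, 43.2% were called in this comparison, 22% higher and 21.2% lower. The median log2 fold change of the members was -0.009. They were the receptors Flt1, Kdr and Robo4, the adhesion gene Vcam1 and the flow-responsive gene Klf4. By the study's cut-offs 1 member passed, Flt1, beside 9.5% of all genes (5.27% higher and 4.23% lower). In 3 members (Flt1, Vcam1 and Klf4) the 2 groups did not overlap, which held for 21.9% of all genes.

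In 24-mo relative to 2-mo WT aortas, 2 members rose (Flt1 and Klf4) and 1 fell (Selp). The background was 11.7% of genes called, 6.29% higher and 5.38% lower. The members' median log2 fold change was -0.08. Flt1 alone passed the study's cut-offs, beside 2% of all genes (1.28% higher and 0.717% lower). The groups did not overlap in 2 members, Flt1 and Klf4, beside 6.28% of all genes. Both comparisons share the 2-mo WT mice, so members called in both are not independent.

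In HGPS relative to 24-mo WT aortas, 3 members were higher (Eng, Vcam1 and Selp) and none lower, whereas 47.3% of all genes were called, 23.8% higher and 23.6% lower. By edgeR's test none of the 35 passed the study's cut-offs, beside 12.1% of all genes (6.02% higher and 6.11% lower), and DESeq2 also gave 0. At an unadjusted p under 0.05 there were 5 members. The groups did not overlap in 1 member, Eng, beside 22.2% of all genes.

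**Figure D1:**
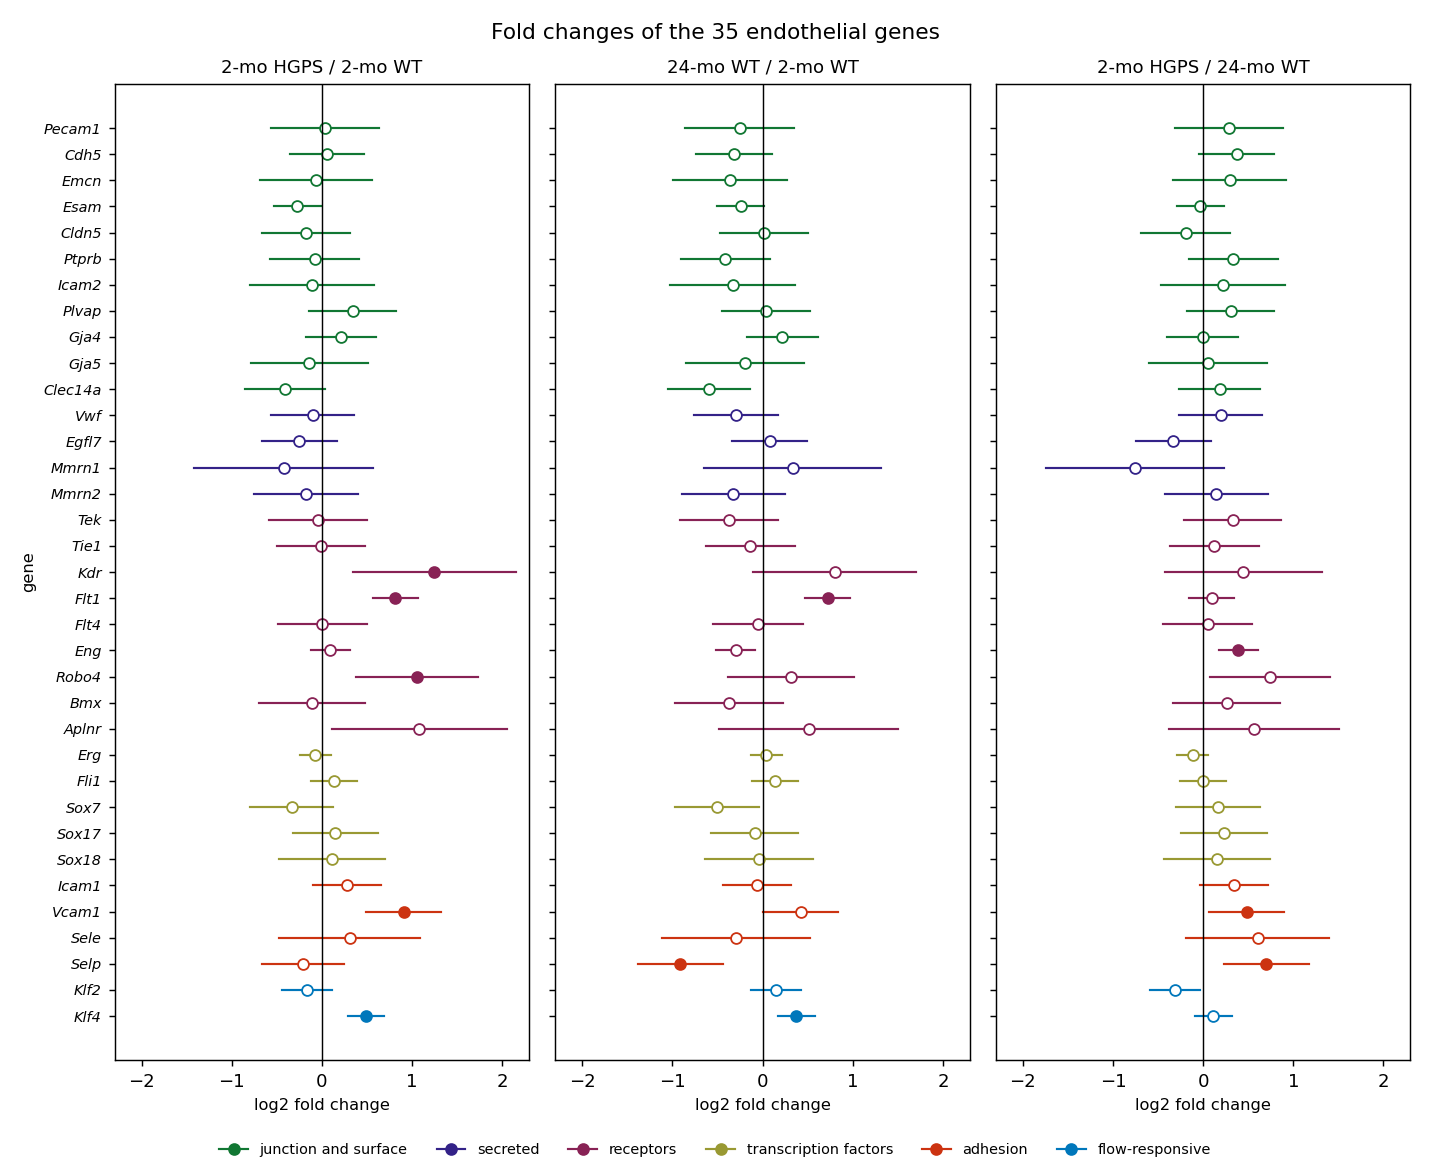
Log2 fold changes (x axis) of the 35 genes (y axis) in the 3 comparisons, with bars for the 95% interval from edgeR's fit and filled points for an adjusted p under 0.05; colours give the class of the gene. Most intervals cross 0, and the filled points to the right are Kdr, Flt1, Robo4, Vcam1 and Klf4 in HGPS relative to 2-mo WT mice.

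The 11 junction and surface genes gave no call in any of the 3 comparisons by edgeR's quasi-likelihood test. At an unadjusted p under 0.05 there was 1 in HGPS and 1 in 24-mo WT relative to 2-mo WT mice, and DESeq2 called 0 and 1. Both counts were 0 between HGPS and 24-mo WT mice. Pecam1 ranged from 306 CPM over a median of 538 to 641 CPM in 2-mo WT mice. In HGPS mice its lowest, median and highest values were 410, 492 and 679 CPM. In 24-mo WT mice they were 166, 408 and 773 CPM. The 3 groups overlapped widely, and the old mice reached both lower and higher than either young group. The log2 fold change was 0.03 ± 0.28 (SE, n = 6 per group) in HGPS and -0.25 ± 0.28 in 24-mo WT relative to 2-mo WT mice.

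Cdh5, the adhesion molecule of the endothelial junction, ran from 25.3 over 55.0 to 77.1 CPM in 2-mo WT mice. It was 51.1, 57.2 and 59.9 CPM (lowest, median and highest) in HGPS and 30.2, 43.9 and 57.3 CPM in 24-mo WT mice. HGPS values lay inside the range of the 2-mo WT mice and were close together. The other 9 genes of this class had log2 fold changes from -0.41 (Clec14a) to 0.34 (Plvap) in HGPS relative to 2-mo WT mice. Clec14a encodes a lectin-like surface protein of vessel sprouting, and had means of 73.9 ± 16.6 CPM in 2-mo WT, 55.5 ± 10.2 in HGPS and 48.9 ± 17.4 in 24-mo WT mice (SD, n = 6). Its adjusted p-values by edgeR were 0.124 and 0.0760 relative to 2-mo WT mice. Esam, another junction molecule, had 48.5 ± 6.29, 40.1 ± 4.19 and 41.02 ± 8.83 CPM in the same order (adjusted p by edgeR 0.0777 in HGPS).

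The connexin genes of arterial endothelium did not differ beyond their spread. Gja5 (connexin 40) had 75.5 ± 18.6 CPM in 2-mo WT, 68.6 ± 13.9 in HGPS and 66.3 ± 39.0 in 24-mo WT mice. Gja4 (connexin 37) had 19.9 ± 4.19, 23.1 ± 4.65 and 23.2 ± 6.65 CPM. Among the remaining surface genes, Ptprb had 400 ± 112, 378 ± 60.4 and 300 ± 126 CPM in the same order. Icam2, an integrin ligand that is present without activation, had 19.98 ± 5.80, 18.5 ± 3.82 and 16.0 ± 9.81 CPM. Emcn (endomucin) had 10.002 ± 2.93, 9.56 ± 2.28 and 7.83 ± 3.91 CPM. None of these 3 genes was called in any comparison. Cldn5 had 12.01 ± 3.92, 10.7 ± 3.45 and 12.2 ± 3.17 CPM, and Plvap, which forms the diaphragms of fenestrae, had 14.4 ± 3.68, 18.4 ± 3.55 and 14.9 ± 5.95 CPM.

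The 4 secreted genes also gave no call in the 3 comparisons, with 0 at an unadjusted p under 0.05 and 0 by DESeq2. Vwf ranged over 154, 348 and 499 CPM (lowest, median and highest) in 2-mo WT mice. In HGPS mice it was 278, 320 and 346 CPM, and in 24-mo WT mice 178, 272 and 402 CPM. The groups overlapped, and HGPS mice stood closest together. Mmrn2, a matrix ligand of CLEC14A, had 72.4 ± 21.4 CPM in 2-mo WT, 64.1 ± 10.7 in HGPS and 58.0 ± 29.1 in 24-mo WT mice. Egfl7 had 28.2 ± 7.81, 23.7 ± 2.61 and 29.9 ± 9.13 CPM. Its locus overlaps Agpat2, a fat cell gene on the opposite strand, and whether the counting used strand is not given in the sources used here. Mmrn1, which is found in platelets and lymphatic endothelium, had 10.6 ± 4.33, 7.98 ± 6.29 and 13.4 ± 9.91 CPM, and its 95% interval in HGPS relative to 2-mo WT mice was wide, from -1.42 to 0.57 on the log2 scale.

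The 5 transcription factors of endothelial identity gave no call either, with 0 by DESeq2 in each comparison. At an unadjusted p under 0.05 only Sox7 in 24-mo relative to 2-mo WT mice was found. Erg, an ETS factor that maintains junction genes, had 75.6 ± 5.82 CPM in 2-mo WT, 71.8 ± 6.76 in HGPS and 77.7 ± 8.86 in 24-mo WT mice. Its 95% interval was -0.25 to 0.10 on the log2 scale in HGPS and -0.13 to 0.21 in 24-mo WT relative to 2-mo WT mice. Fli1, which leukocytes and platelets also express, had 20.5 ± 4.31, 22.6 ± 1.32 and 22.6 ± 3.54 CPM. The SOX factors, which specify arterial and lymphatic endothelium, stood at 3.54 ± 0.692 CPM (Sox17), 4.39 ± 1.30 CPM (Sox7) and 5.19 ± 2.18 CPM (Sox18) in 2-mo WT mice. In HGPS mice they stood at 3.92 ± 1.38, 3.48 ± 0.406 and 5.67 ± 1.03 CPM, and in 24-mo WT mice at 3.35 ± 0.933, 3.11 ± 0.947 and 5.10 ± 2.18 CPM.

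Of the 26 identity genes not called in HGPS relative to 2-mo WT mice, 24 had a 95% interval inside 2-fold in either direction. In 24-mo relative to 2-mo WT mice this held for 22 of 28. The intervals of the others reached past 2-fold.

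The receptors differed among themselves. Of 9 genes, 3 rose in HGPS and 1 rose in 24-mo WT relative to 2-mo WT aortas, beside 22% and 6.29% of all genes. Flt1 (ENSMUSG00000029648, chr5:147561604-147726011, minus strand) encodes VEGFR-1, which also exists as a soluble trap for VEGF-A and PlGF. It had 22.1, 25.8 and 30.4 CPM (lowest, median and highest) in 2-mo WT mice. HGPS mice had 35.01, 46.01 and 59.6 CPM, and 24-mo WT mice 35.7, 41.5 and 51.5 CPM. Every HGPS mouse and every old mouse lay above every 2-mo WT mouse, and the HGPS and old mice overlapped. The rise was 1.76-fold in HGPS (log2 fold change 0.81 ± 0.12, SE, edgeR adjusted p = 2.69e-05) and 1.65-fold at 24 mo (0.72 ± 0.12, edgeR adjusted p = 0.000353). Between HGPS and 24-mo WT mice the log2 fold change was 0.09 with a 95% interval from -0.15 to 0.34. Soluble and full-length forms are summed in these counts.

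Kdr (ENSMUSG00000062960, chr5:75932827-75978458, minus strand) encodes VEGFR-2, the main signalling receptor for VEGF-A. Its means were 7.87 ± 4.69 CPM in 2-mo WT, 18.9 ± 9.92 in HGPS and 13.8 ± 7.03 in 24-mo WT mice (SD, n = 6). The values ran from 4.13 to 16.0 CPM in 2-mo WT, 7.44 to 31.1 CPM in HGPS and 4.16 to 22.4 CPM in 24-mo WT mice. The groups overlapped in spite of the 2.37-fold rise in HGPS (log2 fold change 1.25 ± 0.42, edgeR adjusted p = 0.0226). This call was lost when HGPS replicate 2 or 3 or 2-mo WT replicate 4 or 6 was left out, with log2 fold changes of 1.07, 1.05, 1.13 and 1.11.

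Robo4, a guidance receptor of the endothelium, had 0.649, 1.57 and 2.295 CPM (lowest, median and highest) in 2-mo WT mice. In HGPS mice it had 1.5002, 3.50 and 5.23 CPM, and in 24-mo WT mice 1.31, 1.86 and 2.75 CPM. It rose 2.08-fold in HGPS relative to 2-mo WT mice (1.06 ± 0.32 on the log2 scale, edgeR adjusted p = 0.0115), with overlapping groups and as few as 8 counts in a mouse. Aplnr, the apelin receptor, did not pass edgeR's test and was called by DESeq2. It had 0.952 ± 0.433 CPM in 2-mo WT, 2.07 ± 1.10 in HGPS and 1.37 ± 0.954 in 24-mo WT mice (log2 fold change 1.08 ± 0.46 in HGPS, edgeR adjusted p = 0.0620), and was called in 5 of the 18 fits without 1 mouse. DESeq2 thus called 4 receptors and 6 members in this comparison.

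Brown fat genes and white fat genes, like Kdr and Robo4, rose in HGPS mice. All 10 brown fat genes and 9 of 10 white fat genes rose in HGPS relative to 2-mo WT mice. Summed, the brown fat genes ranged over 111 to 673 CPM in 2-mo WT, 505 to 1894 CPM in HGPS and 130.2 to 442 CPM in 24-mo WT mice. The white fat genes ranged over 237 to 902, 644 to 2613 and 174 to 799 CPM. Among HGPS mice, replicates 4 and 5 had both the lowest brown fat sums (505 and 568 CPM) and the lowest Kdr levels (10.4 and 7.44 CPM). Replicates 2 and 3 had both the highest brown fat sums (1894 and 1542 CPM) and the highest Kdr levels (29.8 and 31.1 CPM). With the brown and white fat scores as covariates in the fit, Flt1, Vcam1 and Klf4 remained called, and Kdr and Robo4 did not, with log2 fold changes of -0.19 and 0.09. The brown fat scores were 4.33 to 6.47 in HGPS and 0.84 to 4.76 in 2-mo WT mice. They overlapped little, so this fit can hardly tell fat and the group apart. The part of fat in the rises of Kdr and Robo4 was not tested.

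Tek and Tie1, the angiopoietin receptor and its partner, were not called in any comparison. Tek had 117 ± 27.4 CPM in 2-mo WT, 114 ± 18.1 in HGPS and 90.6 ± 43.9 in 24-mo WT mice, and Tie1 had 46.8 ± 12.5, 46.6 ± 6.11 and 42.7 ± 18.4 CPM. Flt4, which encodes the VEGF-C receptor VEGFR-3, had 6.11 ± 1.93, 6.17 ± 1.32 and 5.97 ± 1.93 CPM. The group means of Flt4 differed by less than the SD of any group. Bmx, a cytoplasmic tyrosine kinase of arterial endothelium, had 29.8 ± 8.27, 27.6 ± 8.95 and 23.1 ± 10.2 CPM.

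Eng, a co-receptor for BMP9 and TGF-β, ran over 52.0, 76.2 and 82.7 CPM (lowest, median and highest) in 2-mo WT mice. It had 71.1, 78.1 and 85.7 CPM in HGPS and 50.3, 59.7 and 67.1 CPM in 24-mo WT mice. The ranges of HGPS and 24-mo WT mice did not meet. The log2 fold change of HGPS relative to 24-mo WT mice was 0.39 ± 0.10 (edgeR adjusted p = 0.00366), and it was called in all 18 fits that left out 1 mouse. In 24-mo relative to 2-mo WT mice it was -0.30 ± 0.10 (edgeR adjusted p = 0.0641), and without 2-mo WT replicate 2 it was -0.38 and called.

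**Figure D2:**
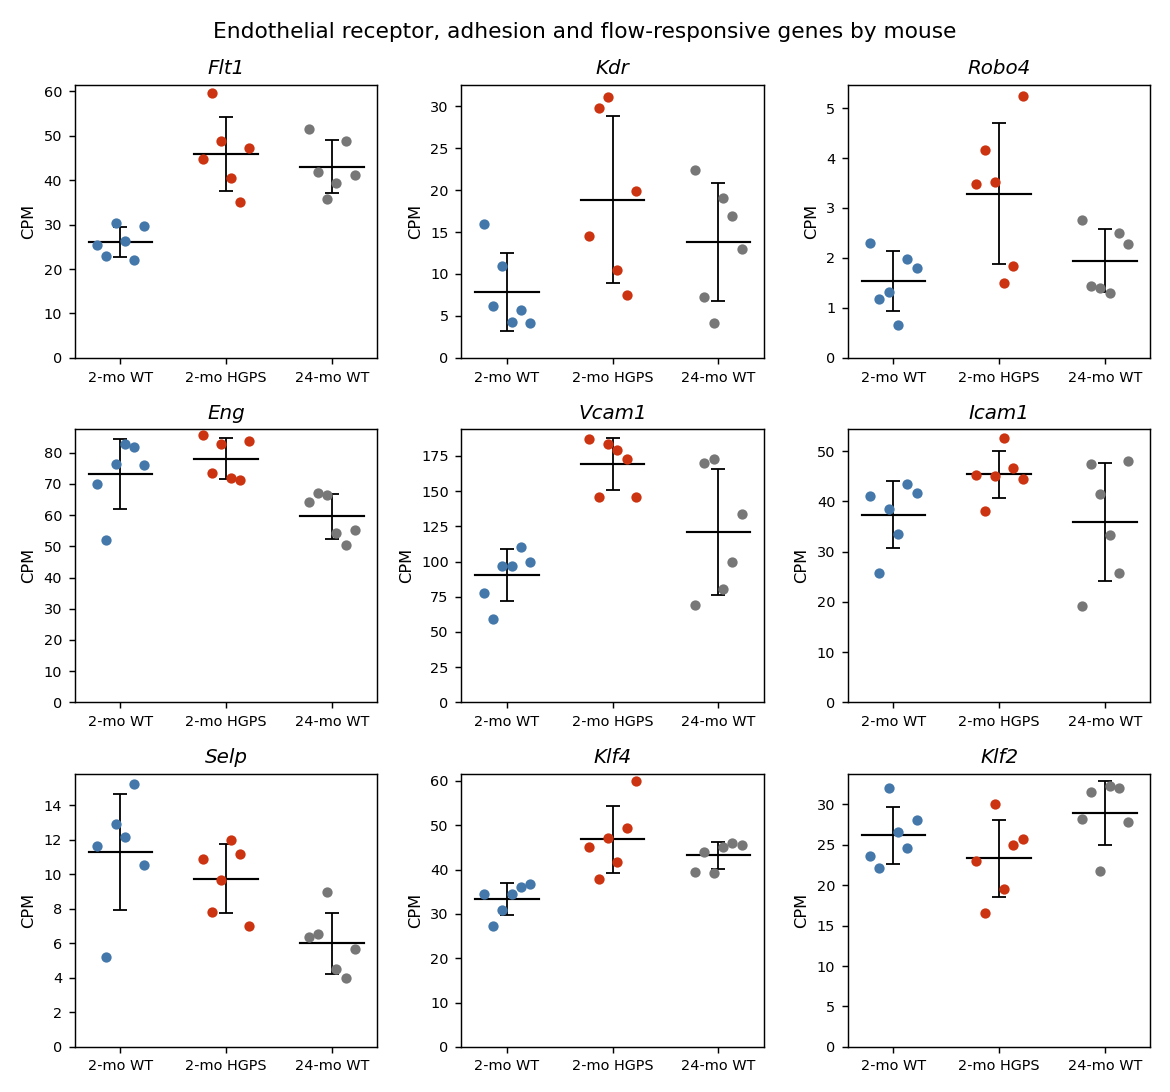
CPM (y axis, from 0) of 9 members in each mouse, by group (x axis), with lines for the mean and bars for the SD of 6 mice. Flt1 and Klf4 were higher in every HGPS and every 24-mo WT mouse than in any 2-mo WT mouse, and Vcam1 was higher in every HGPS mouse.

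The adhesion genes moved apart from one another. Vcam1 (ENSMUSG00000027962, chr3:116109949-116129688, minus strand) encodes the ligand of the integrin α4β1. It had 59.5, 97.0 and 111 CPM (lowest, median and highest) in 2-mo WT mice. In HGPS mice it had 146, 176 and 187 CPM, and in 24-mo WT mice 69.1, 116 and 173 CPM. No HGPS mouse overlapped a 2-mo WT mouse, while the old mice spread across both ranges. The rise in HGPS was 1.87-fold (log2 fold change 0.91 ± 0.20, edgeR adjusted p = 0.00109). This missed the study's limit of 0.001 narrowly, and with DESeq2 Vcam1 passed both cut-offs.

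At 24 mo, Vcam1 had a log2 fold change of 0.42 ± 0.20 relative to 2-mo WT mice (edgeR adjusted p = 0.181). HGPS relative to 24-mo WT mice gave 0.48 ± 0.19 (edgeR adjusted p = 0.0477), a call at the edge of the threshold that was lost in 13 of the 18 fits without 1 mouse. These fits gave log2 fold changes from 0.36 to 0.61.

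Icam1, the ligand of LFA-1 and Mac-1, did not pass the test. It had 25.8, 39.9 and 43.4 CPM (lowest, median and highest) in 2-mo WT, 38.1, 45.1 and 52.7 CPM in HGPS and 19.3, 37.4 and 48.1 CPM in 24-mo WT mice. The groups overlapped, with a log2 fold change of 0.28 ± 0.18 in HGPS (edgeR adjusted p = 0.214) and -0.06 ± 0.18 at 24 mo (edgeR adjusted p = 0.874). Sele, which encodes E-selectin and is nearly absent from resting endothelium, was at 0.533, 0.984 and 2.03 CPM in 2-mo WT mice. It was at 0.561, 1.16 and 2.5003 CPM in HGPS and 0.527, 0.901 and 1.31 CPM in 24-mo WT mice. With 9 to 80 counts per mouse, its 95% interval in HGPS, -0.47 to 1.09 on the log2 scale, included a 2-fold rise.

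Selp (ENSMUSG00000026580, chr1:164115264-164150026, plus strand) encodes P-selectin, which is stored with von Willebrand factor in endothelial granules and in platelets. It ran over 5.21, 11.9 and 15.2 CPM (lowest, median and highest) in 2-mo WT mice. HGPS mice had 6.995 to 11.97 CPM, with a median of 10.3, and 24-mo WT mice 3.97, 6.03 and 8.96 CPM. Apart from 2-mo WT replicate 2, at 5.21 CPM, every 2-mo WT mouse lay above every old mouse. Selp fell at 24 mo to 0.532 of the 2-mo WT level (log2 fold change -0.91 ± 0.22, edgeR adjusted p = 0.0099). HGPS mice had 1.63-fold more of it than 24-mo WT mice (0.70 ± 0.22, edgeR adjusted p = 0.0131), and its log2 fold change in HGPS relative to 2-mo WT mice was -0.21 with a 95% interval from -0.66 to 0.25. Both Selp calls were kept in all 18 fits without 1 mouse. Over all 32 alternative fits the fall at 24 mo was called in 31, and the difference between HGPS and 24-mo WT mice in 29.

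Platelet and red cell genes are given beside Selp because blood left in the vessel carries both. Of 7 platelet genes 1 (Itga2b) rose at 24 mo relative to 2-mo WT mice. There 5 of the 7 had an unadjusted p under 0.05 by edgeR, 6 had positive log2 fold changes, and the median was 1.76. The 5 red cell genes gave 0 calls by edgeR and by DESeq2, with 0 at an unadjusted p under 0.05. Their median log2 fold change at 24 mo was 0.86. The summed platelet genes ranged over 23.9 to 44.01 CPM in 2-mo WT, 25.6 to 65.8 CPM in HGPS and 33.8 to 126 CPM in 24-mo WT mice. The medians of these sums were 30.1, 44.3 and 44.5 CPM in the same order. The part of blood in these values was not tested.

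To set the activation genes against the amount of endothelial RNA, each was expressed relative to the mean log2 CPM of Pecam1, Cdh5, Tie1 and Esam in the same mouse. These are descriptions with no test. Vcam1, Icam1 and the KLF genes are also made by other cells, so such a ratio also rises where the reference genes are low. At 24 mo the reference genes had log2 fold changes from -0.32 (Cdh5) to -0.14 (Tie1). In HGPS mice Esam had -0.27 and the others -0.01 to 0.06. Without a reference, Klf4 had 0.37 and Klf2 0.15 at 24 mo. Relative Vcam1 ranged from -0.33 to 0.19 in 2-mo WT, 0.80 to 1.11 in HGPS and 0.51 to 0.87 in 24-mo WT mice, on the log2 scale. On this scale neither HGPS nor old mice overlapped 2-mo WT mice, and the group means lay 0.94 and 0.66 above that of the 2-mo WT mice. Relative Klf4 lay 0.50 and 0.67 higher, and relative Selp 0.15 and 0.58 lower, in HGPS and 24-mo WT mice, with overlapping groups. Relative Icam1 differed by 0.31 and 0.18, relative Sele by 0.22 and 0.07, and relative Klf2 by -0.17 and 0.43. Vcam1 was thus the single gene of these 6 whose groups were apart on this scale. With Pecam1 and Cdh5 alone as the reference, Vcam1 stayed apart in both comparisons with 2-mo WT mice, at 0.84 and 0.72.

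**Figure D3:**
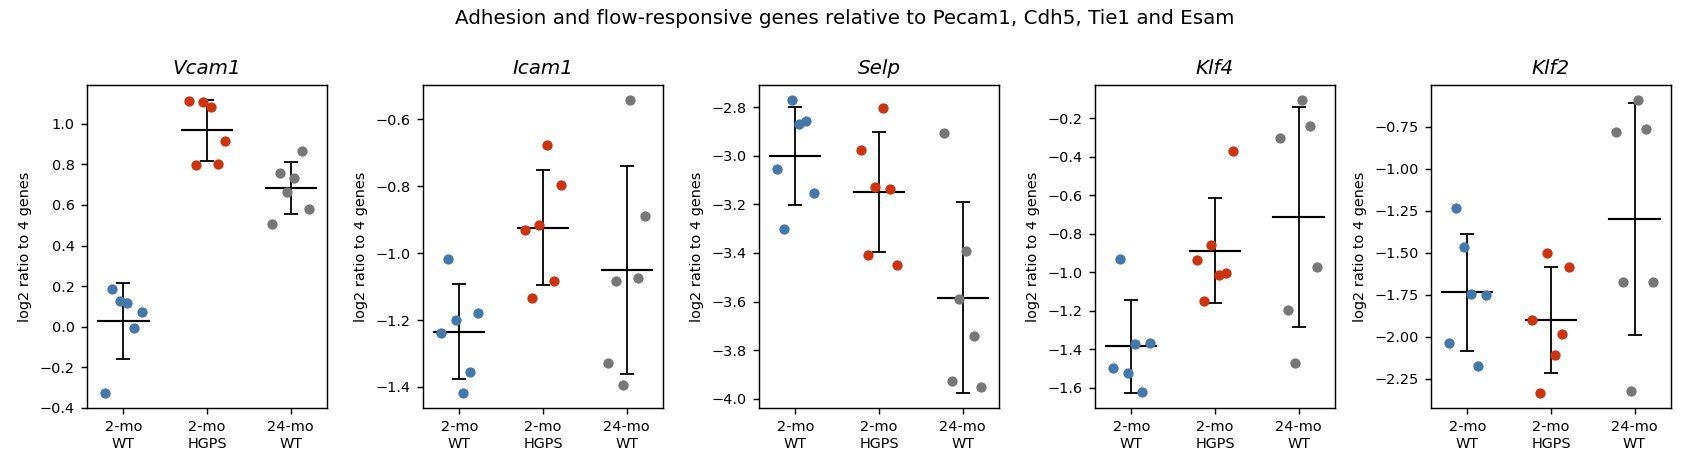
Log2 level of 5 adhesion and flow-responsive genes minus the mean log2 CPM of Pecam1, Cdh5, Tie1 and Esam in the same mouse (y axis), by group (x axis), with the mean and SD of 6 mice. For Vcam1 all HGPS mice (0.80 to 1.11) and all 24-mo WT mice (0.51 to 0.87) lay above the 2-mo WT mice (-0.33 to 0.19).

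Macrophage genes, like Vcam1, rose in HGPS mice. All 9 of them rose relative to 2-mo WT mice, with summed levels of 484 to 732 CPM in 2-mo WT, 912 to 1466 CPM in HGPS and 431 to 900 CPM in 24-mo WT mice. In a fit with the macrophage score as a covariate, chosen after seeing the data, the Vcam1 and Klf4 log2 fold changes in HGPS relative to 2-mo WT mice were 0.16 and 0.33, and neither was called. The macrophage sums of HGPS and 2-mo WT mice did not overlap, so this covariate and the group cannot be told apart.

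Of the flow-responsive genes, Klf4 rose in both comparisons with 2-mo WT mice and Klf2 in neither. Klf4 (ENSMUSG00000003032, chr4:55527143-55532466, minus strand) had 27.4, 34.5 and 36.7 CPM (lowest, median and highest) in 2-mo WT mice. HGPS mice had 37.8, 46.1 and 59.9 CPM, and 24-mo WT mice 39.2, 44.6 and 46.01 CPM. No 2-mo WT mouse reached the lowest mouse of either other group. The rise was 1.40-fold in HGPS (log2 fold change 0.49 ± 0.10, edgeR adjusted p = 0.000445) and 1.30-fold at 24 mo (0.37 ± 0.10, edgeR adjusted p = 0.0138). Both were below the study's 1.5-fold limit, and both were called in all 18 fits without 1 mouse. Over all 32 alternative fits the Klf4 rise was called in 31 in HGPS and in 30 at 24 mo.

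Klf2 had 22.2, 25.6 and 31.99 CPM (lowest, median and highest) in 2-mo WT, 16.5, 24.0 and 30.1 CPM in HGPS and 21.7, 29.9 and 32.2 CPM in 24-mo WT mice. The 3 groups overlapped. Its log2 fold change was -0.17 ± 0.13 in HGPS (edgeR adjusted p = 0.316) and 0.15 ± 0.13 at 24 mo (edgeR adjusted p = 0.527). HGPS relative to 24-mo WT mice gave -0.31 ± 0.13 (edgeR adjusted p = 0.0516). KLF genes also respond early to handling of tissue, and immediate early genes such as Fos and Egr1 are therefore given beside them. Of 9 such genes, 5 fell in HGPS and 3 rose at 24 mo relative to 2-mo WT mice, and their sums ranged over 427 to 982 CPM in 2-mo WT, 298 to 423 CPM in HGPS and 236 to 1449 CPM in 24-mo WT mice. With the immediate early score as a covariate the Klf4 log2 fold changes were 0.54 and 0.35, and both were called. The immediate early scores were 4.56 to 5.07 in HGPS and 4.89 to 6.04 in 2-mo WT mice. They overlapped little, so there this covariate and the group can hardly be told apart. The part of handling in the KLF values was not tested.

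**Figure D4:**
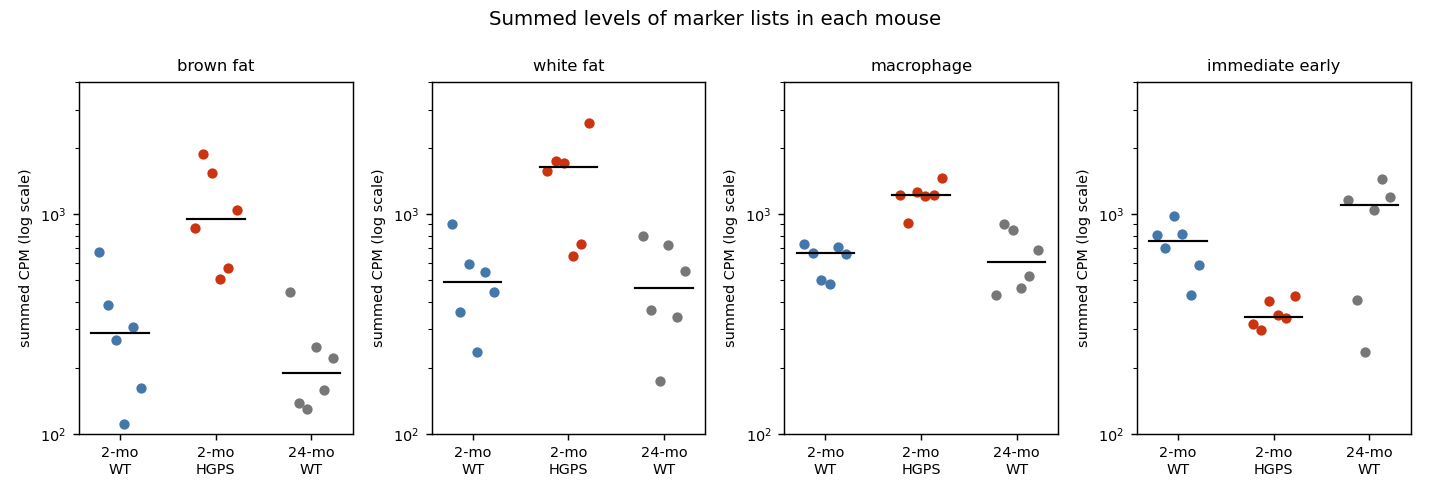
Summed CPM (y axis, log scale) of the brown fat, white fat, macrophage and immediate early marker lists in each mouse, by group (x axis), with lines for the median. HGPS mice were highest for macrophage genes (912 to 1466 CPM) and lowest by median for immediate early genes (298 to 423 CPM).

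The identity genes varied together between mice of one group. In 2-mo WT mice, replicate 2 was the lowest of 6 in 21 of 29 identity genes: it had 306 CPM of Pecam1 where the other 5 mice had 505 to 641 CPM. Erg was the 1 identity gene that was highest in this mouse, at 82.5 CPM beside 67.3 to 78.5 CPM in the other 5. In 24-mo WT mice, replicates 1, 4 and 5 were the 3 lowest mice in 21 of 29 identity genes and in 23 of 35 members. For Pecam1 these 3 mice had 166, 236 and 281 CPM, and the other 3 had 606, 773 and 536 CPM. For Kdr and Aplnr the same 3 mice were instead the 3 highest, with Kdr at 22.4, 19.02 and 16.9 CPM in them and 7.25, 4.16 and 12.9 CPM in the others. Flt1 did not follow Pecam1 either. It was highest in replicates 1 and 5 (51.5 and 48.8 CPM), at 39.5 CPM in replicate 4, and at 35.7 to 41.8 CPM in the others. These mice were singled out after their values were seen, and no test was made between them.

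Replicates 1, 4 and 5 of the 24-mo WT mice also had the 3 lowest macrophage sums (431, 463 and 522 CPM, beside 688 to 900 CPM). They had the 3 lowest red cell sums as well (1787, 1860 and 5757 CPM, beside 6410 to 7139 CPM). Their immediate early sums were 1163, 1046 and 1449 CPM, and those of the other 3 mice were 408, 236 and 1203 CPM. The smooth muscle sums of the 6 mice differed little, from 32369 to 36851 CPM. The part of these genes in the split was not tested.

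The spread of the identity genes was accordingly widest at 24 mo. The median coefficient of variation over the 29 genes was 27.7% in 2-mo WT, 18.4% in HGPS and 35.5% in 24-mo WT mice. In 23 of 29 genes it was larger in 24-mo than in 2-mo WT mice, and for Pecam1 it was 55.6% against 21.8%. Among the transcription factors it differed by gene in 2-mo WT mice, at 7.69% for Erg, 19.6% for Sox17, 21.02% for Fli1, 29.7% for Sox7 and 42% for Sox18. The genes share the mice, so these counts describe a few libraries and not independent cases.

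**Figure D5:**
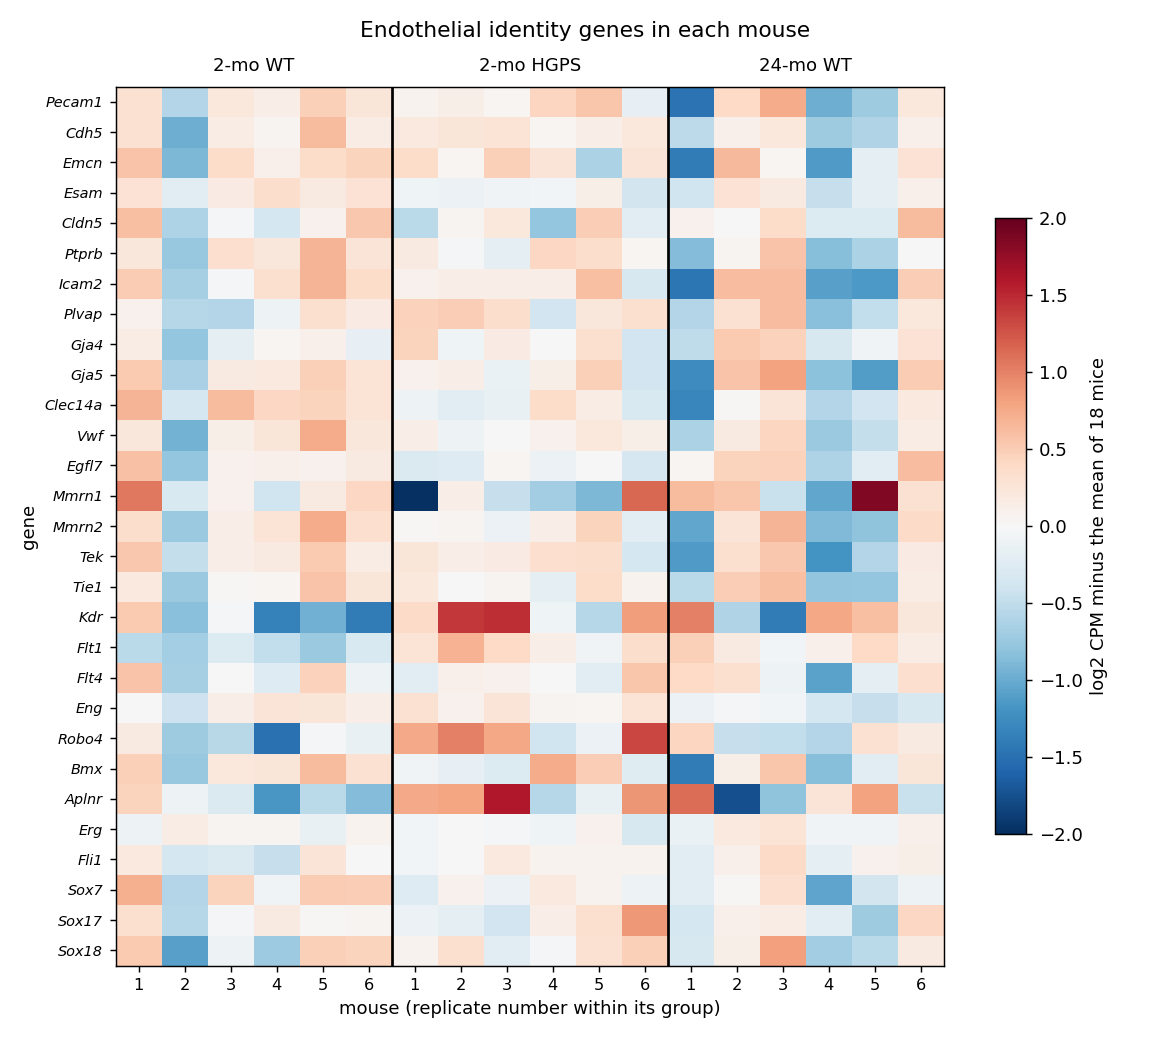
Log2 CPM of 29 identity genes (rows) in 18 mice (columns, numbered within their group), as the difference from the gene's mean over all mice, with colours ending at -2 and 2. The 2-mo WT replicate 2 and the 24-mo WT replicates 1, 4 and 5 were blue for most genes, while Kdr and Aplnr were red in those 3 old mice.

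Leaving out 2-mo WT replicate 2 gave 5 calls in place of 3 in 24-mo relative to 2-mo WT mice, adding Eng and Clec14a, and 5 in place of 3 in HGPS relative to 24-mo WT mice, adding Cdh5 and Klf2. In HGPS relative to 2-mo WT mice it kept the 5 calls and added Esam and Clec14a, both lower in HGPS, at log2 fold changes of -0.35 and -0.53.

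For every list in this report the background is the share of all genes called. In HGPS relative to 2-mo WT mice this was 43.2% (22% higher, 21.2% lower). At 24 mo it was 11.7% (6.29% higher, 5.38% lower), and in HGPS relative to 24-mo WT mice 47.3% (23.8% higher, 23.6% lower). Another list held 30 endothelial genes outside the 35. Of these, 4 rose and 2 fell in HGPS relative to 2-mo WT mice, with a median log2 fold change of 0.05. The adhesion G protein-coupled receptor genes Adgrl4 and Adgrf5 rose with log2 fold changes of 1.11 and 0.57, as did Tspan18 (0.92) and the sphingosine-1-phosphate receptor gene S1pr1 (0.67). Cd34 fell by 0.58 and Rhoj by 0.41 on the log2 scale, though Cd34 is also a gene of adventitial fibroblasts. At 24 mo, none rose and 3 fell: Cd93 (-0.55), Calcrl (-0.49) and Cd34 (-0.33). In HGPS relative to 24-mo WT mice 9 of the 30 were higher and 1 lower.

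Genes that tell vessel types apart moved in different directions in HGPS mice. Of 14 tested capillary and venous genes, 10 rose and 2 fell relative to 2-mo WT mice, with a median log2 fold change of 1.71. The 2 that fell were Nr2f2 (-0.55) and Ephb4 (-0.40), so the list did not rise as a whole. The largest rises were in Esm1, a tip cell gene (2.57), Lrg1 (2.17), Fabp4 (1.97) and Gpihbp1, which holds lipoprotein lipase on capillaries (1.88). Fabp4, Lpl and Cd36 of this list are also fat cell genes, and the fat lists rose in the same mice, as given above. At 24 mo the list had 0 calls by edgeR, 2 by DESeq2 and 3 genes at an unadjusted p under 0.05. Of 11 arterial genes, 2 rose and 3 fell in HGPS: Cxcr4 (1.34) and Hey1 (0.42) were higher, and Hey2 (-0.59), Jag1 (-0.43) and Efnb2 (-0.34) lower. Hey2, Jag1 and Efnb2 are also expressed in arterial smooth muscle, of whose 9 marker genes 6 fell. Of 7 tested lymphatic genes, Lyve1 rose (0.71), a gene that tissue macrophages share, and Foxc2 fell by 0.58.

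Ligands of the member receptors included the strongest change around Flt1. Pgf, which encodes the Flt1 ligand PlGF, rose from 2.72 CPM in 2-mo WT to 16.7 CPM in HGPS and 10.6 CPM in 24-mo WT mice (log2 fold changes 2.61 and 1.95, edgeR adjusted p = 4.97e-06 and 0.000383). Of 13 tested ligands and co-receptors, 3 rose and 3 fell in HGPS relative to 2-mo WT mice. Nrp2 (1.30) and Angpt1 (0.77) also rose, and Vegfd fell by 0.41. At 24 mo 5 rose and 1 fell, among them Angpt1 (0.95), Angpt4 (0.91) and Slit3 (0.68), a ligand of ROBO receptors.

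Among 10 leukocyte counter-receptors of the adhesion genes, 5 rose in HGPS relative to 2-mo WT mice and none fell. Of all genes, 22% rose and 21.2% fell in this comparison. The 5 counter-receptor genes were the β2 integrin genes Itgax (2.49), Itgb2 (1.15) and Itgam (1.12), the P-selectin ligand gene Selplg (1.07) and Cd44 (0.65). Itga4, which encodes the VCAM-1 receptor subunit, was not called in HGPS. At 24 mo 2 of the 10 rose, Itgal (1.37) and Spn (0.97), and Itga4 fell by 0.52 on the log2 scale. Of 14 tested inflammatory activation genes, 7 rose and 1 fell in HGPS, with Ccl2 (2.80), Cxcl10 (1.79), Cxcl1 (1.57) and Cx3cl1 (0.82) the largest. At 24 mo 2 rose, Ccl2 (1.73) and Cx3cl1 (0.88), the latter encoding a chemokine that is tethered to the endothelial surface. The β2 integrin genes and Selplg are leukocyte genes, and macrophages also make Ccl2 and Cxcl10. The macrophage list rose in HGPS as given above, with a median log2 fold change of 1.04. The part of leukocytes in these rises was not tested.

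Of 18 flow and mechanosensing genes, 1 rose and 4 fell in HGPS relative to 2-mo WT mice, beside 22% and 21.2% of all genes. The mechanosensitive channel gene Piezo1 rose (0.60), and Mef2c, which encodes a factor upstream of KLF2 and KLF4, fell by 0.54 and Mef2d by 0.34. At 24 mo Edn1, the endothelin-1 gene, fell by 1.11 on the log2 scale and Cyp1b1 rose (0.43). Nos3 and Thbd, which are induced by KLF2, were called in neither comparison. The marker lists not given above were counted in HGPS relative to 2-mo WT mice as follows: all 5 tested pericyte genes and 4 of 8 fibroblast genes fell, 1 Schwann cell gene rose and 2 fell of 5, 1 skeletal muscle gene rose and 1 fell of 4, and 0 of 3 T and B cell genes were called by edgeR or DESeq2, with 0 at an unadjusted p under 0.05.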

How the data were processed

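The deposited values were estimated counts per gene and mouse, which the authors made with salmon and tximport on GENCODE M23 (GRCm38.p6) from stranded, ribosomal RNA-depleted total RNA libraries of 18 aortas. They are whole numbers and were used as deposited. The submitters' processing notes also name Bowtie 0.12.2 without a role. The strand setting of the counting is not given in the sources used here. Estimates split reads between similar transcripts, which can blur overlapping genes.

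The 15210 of 54281 genes that reached 10 counts in 6 or more mice were scaled by TMM and fitted over 3 groups of 6 mice with edgeR's quasi-likelihood test (edgeR 4.0.16, R 4.3.3), which left 15 residual degrees of freedom. P-values are two-sided and Benjamini-Hochberg adjusted over 15210 genes. The 95% intervals are the log2 fold change ± t × SE. Log2 CPM used a prior count of 2. CPM per kb used 1 GENCODE M21 transcript per gene, which also gave symbols for 54107 identifiers. DESeq2 1.42.0, other scalings and filters, covariates and leaving out each mouse were the alternatives. The fit was tested on simulated data. Figures were drawn with matplotlib 3.10.9.

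The 35 members and all lists were chosen with earlier results of these data known. All members are named, those in the adhesion and flow classes and those called with values by mouse range. In other lists a part of the called genes is named, mostly those with the largest change. Replicate numbers did not pair the mice. Each mouse is a separate animal. No sequence is given for the members whose promoters were not matched.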

Additional observations from a re-analysis of the deposited data

Results flagged for a closer look

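In 15 of the 105 combinations of a member and a group of 6 mice, 1 mouse stood apart: its gap to the nearest mouse exceeded Dixon's 95% limit as a share of the group's range of log2 CPM. Chance gives about 1 in 20 such groups, and genes of 1 mouse are not independent. Of the 15, 12 were the lowest value of 2-mo WT replicate 2.

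In that mouse the junction and surface genes were at 8.26 log2 CPM for Pecam1 (the others 8.98 to 9.32), 4.667 for Cdh5 (5.70 to 6.27), 2.204 for Emcn, 5.205 for Esam, 7.66 for Ptprb, 3.656 for Gja4 and 5.382 for Gja5. The secreted genes Vwf and Egfl7 were at 7.272 and 3.949 log2 CPM, the receptor genes Eng and Bmx at 5.704 and 3.899, and the adhesion gene Selp at 2.411 (the others 3.41 to 3.94). The other 3 values were in different mice. Tek was lowest in HGPS replicate 6 at 6.318 log2 CPM (the others 6.80 to 7.02), Plvap in HGPS replicate 4 at 3.556 (4.17 to 4.42), and Klf2 in 24-mo WT replicate 3 at 4.45 (4.81 to 5.01).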

How the results depend on the processing

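Members called in HGPS relative to 2-mo WT mice numbered 5. They were 8 with only these 2 groups fitted (6 higher, 2 lower), 6 with DESeq2 (all higher) and 3 with brown and white fat scores as covariates. With the endothelial reference score they were 11 (9 higher, 2 lower). With the macrophage score they were 9 (2 higher, 7 lower: Tek, Tie1, Esam, Mmrn2, Icam2, Gja5 and Clec14a). Both of these scores were chosen after seeing the data. The endothelial reference score is the mean log2 CPM of Pecam1, Cdh5, Tie1 and Esam, which are members. Counts with it are therefore not independent of the genes counted. Without 1 mouse 4 to 7 were called. The study's cut-offs gave 1. They gave 2 with DESeq2, upper quartile scaling, library totals, no filter, a minimum of 50 counts, only 2 groups, thinned counts, the endothelial reference score or the immediate early score, 0 with the fat scores, and 1 to 2 without 1 mouse. In 24-mo relative to 2-mo WT mice 3 were called, beside 5 with DESeq2, 5 with the endothelial reference score and 3 to 5 without 1 mouse. With the skeletal muscle score only 1 was called, Flt1, and the calls of Selp and Klf4 were lost. The cut-offs gave 1, beside 2 with DESeq2, 0 with the replicate block, the fat scores or the skeletal muscle score, and 0 to 1 without 1 mouse. In HGPS relative to 24-mo WT mice 3 were called, beside 5 with DESeq2, 5 with the endothelial reference score and 2 to 5 without 1 mouse, and the cut-offs gave 0 in each of these. Relative Vcam1 differed there by 0.11 with Pecam1 and Cdh5 alone. The log2 fold change of Kdr in HGPS relative to 2-mo WT mice turned to -0.19 with the fat scores, and that of Vcam1 relative to 24-mo WT mice to -0.12 with the macrophage score. The causes were not tested.

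Over 18 same-numbered pairs of mice, deviations from group means correlated from -0.16 to 0.17, so the numbers do not pair the mice, and 4 of 18 mice correlated best with their own number. With the replicate block 5, 3 and 3 members were called, as without it. Robo4, Sele and Aplnr had under 10 counts in at least 1 mouse, which limits their precision.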
